A study of Mus musculus with 6 samples.

Results

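The 10 genes described here, of 55450 in the count tables, encode matrix and secreted proteins of tendon, ligament, suture and periosteum: Tnmd, Thbs4, Angptl7, Cilp, Cilp2, Tnn, Postn, Ostn, Ptn and Matn4. They were chosen from an earlier look at these same data, as genes with few transcripts at 12m at both sites and more in the suture library at 18m, so their levels are a description with no test. Their detection together in the same cells was also part of that choice, and is likewise a description. Their transcripts were counted in collagen-high cells, defined as cells with at least 20 unique molecular identifiers (UMIs, each standing for 1 captured transcript) of Col1a1, Col1a2 and Col3a1 together. These numbered 315 of 37576 cells.

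Single-cell 3' RNA-seq libraries were made from the calvaria of wild-type C57BL/6 mice with no treatment, at 2, 12 and 18 months of age (02m, 12m and 18m). CBMA samples took in the sagittal suture and the adjoining parietal bone, and CBMD samples took parietal bone away from the sutures. A library was made from a pool of 6 to 8 mice, all given as male. With 6 libraries in all, 1 for each combination of age and site, nothing was replicated, no test across mice was made, and every interval covers counting error only. The dura and the periosteum had been taken off, and both can hold cells that use these genes.

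At 02m, 12m and 18m there were 48, 9 and 180 collagen-high cells in CBMA, against 44, 15 and 19 in CBMD. This was 0.559%, 0.331% and 2.49% of CBMA cells, against 0.553%, 0.336% and 0.287% of CBMD cells. They held 377436, 52780 and 1818612 UMIs in CBMA, against 390316, 125341 and 234126 UMIs in CBMD, so 1 UMI weighs far more in the 12m libraries. A level is given as counts per 1000000 UMIs of these cells (CPM), and a count of 0 allows up to 3 UMIs, a limit of 56.8 CPM in CBMA_12m, 23.9 CPM in CBMD_12m, 12.8 CPM in CBMD_18m and 1.65 CPM in CBMA_18m. Such limits cover counting error only. The 12m libraries also went against their label: Xist, the RNA of the inactive X chromosome, stood at 564 CPM in CBMA_12m and 596 CPM in CBMD_12m over all cells, and at 0.252 to 0.360 CPM in the other libraries. In collagen-high cells, Xist was detected in 5 of 9 cells of CBMA_12m, in 9 of 15 cells of CBMD_12m and in 0 cells of the others. Transcripts of the Y chromosome (Uty, Kdm5d, Eif2s3y and Ddx3y summed) were also present there, at 81.0 CPM in CBMA_12m and 91.1 CPM in CBMD_12m over all cells, beside 126 to 215 CPM in the other libraries, and in 3 of 9 and 4 of 15 collagen-high cells, so the 12m libraries held both kinds of transcript. Comparisons of 18m with 02m do not use those libraries. Pairs of libraries shared 6 to 21 barcodes among all cells and 0 among collagen-high cells.

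Collagen-high cells were of mixed kinds. At least 3 UMIs of 10 suture stem cell markers such as Gli1, Prrx1 and Twist1 were held by 47, 5 and 174 cells of CBMA and by 43, 12 and 19 cells of CBMD. At least 10 UMIs of 6 markers of Cxcl12-abundant reticular (CAR) cells, the stroma of the marrow, were held by 0, 2 and 74 cells of CBMA and by 3, 5 and 16 cells of CBMD, among them 16 of the 19 of CBMD_18m. At least 10 UMIs of 10 osteoblast markers were held by 13, 5 and 87 cells of CBMA and by 18, 10 and 18 cells of CBMD. Of 6 neutrophil markers, the same minimum was held by 6, 8 and 17 cells of CBMA and by 14, 7 and 1 cells of CBMD, so 8 of the 9 cells of CBMA_12m carried them. Genes that respond to dissociation, such as Fos and Egr1, stood at 1693, 6025 and 2364 CPM in CBMA, against 2042, 8816 and 3771 CPM in CBMD, highest at 12m at both sites. No collagen-high cell of any library held 10 UMIs of the endothelial, erythroid or skeletal muscle markers. Scx, the transcription factor that defines tendon cells, was detected in 9, 2 and 15 cells of CBMA and in 3, 0 and 0 cells of CBMD, and Mkx, a second tendon factor, in 8, 3 and 30 cells and in 18, 1 and 0 cells. Scx was thus in at most 22.2% of the cells of a library and Mkx in 40.9% of those of CBMD_02m. Neither had a UMI in CBMD_18m, so the 10 genes are called matrix genes here. Of the suture list, Prrx1 was in 42, 5 and 173 cells of CBMA and in 40, 12 and 18 of CBMD. Gli1 was in only 6, 1 and 25 cells and in 7, 1 and 4. All 19 cells of CBMD_18m carried the suture list and 16 of them CAR markers, so the list does not set suture cells apart. Cells just above the limit, with 20 to 39 collagen UMIs, numbered 0, 2 and 60 in CBMA, against 2, 4 and 12 in CBMD, and those just below it, with 10 to 19, numbered 4, 7 and 58, against 2, 13 and 13.

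Tendons, ligaments and sutures are dense connective tissues in which fibroblasts lay down type I collagen and a set of proteins that order the fibers and carry load. In the calvaria, the suture holds mesenchymal stem cells between the bone fronts, and its fibers tie the bones together, while periosteum and muscle attachments add cells of a related kind. Tnmd (tenomodulin) is a membrane glycoprotein of mature tendon and ligament, and Thbs4 (thrombospondin 4) is a pentameric matrix protein of tendon. Cilp and Cilp2 are cartilage intermediate layer proteins, Angptl7 is a secreted angiopoietin-like protein, Tnn is tenascin N (tenascin W) of periosteum and osteogenic stroma, and Postn (periostin) is a collagen-binding protein of periosteum and ligament. Ostn (osteocrin) is a peptide of bone and muscle that binds the natriuretic peptide clearance receptor, Ptn (pleiotrophin) is a heparin-binding growth factor, and Matn4 is a matrilin, an adaptor of matrix filaments.

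All 10 are protein-coding genes, found by identifier in a GENCODE annotation of GRCm38 and spread over 10 chromosomes, so none of them lies beside another on 1 chromosome. Tnmd (ENSMUSG00000031250) lies on chromosome X from 133850980 to 133865577, Thbs4 (ENSMUSG00000021702) on chromosome 13 from 92751590 to 92794818, Angptl7 (ENSMUSG00000028989) on chromosome 4 from 148495183 to 148500460, Cilp (ENSMUSG00000042254) on chromosome 9 from 65265180 to 65280605 and Cilp2 (ENSMUSG00000044006) on chromosome 8 from 69880369 to 69887687. Tnn (ENSMUSG00000026725) lies on chromosome 1 from 160085029 to 160153580, Postn (ENSMUSG00000027750) on chromosome 3 from 54361109 to 54391037, Ostn (ENSMUSG00000052276) on chromosome 16 from 27307489 to 27351212, Ptn (ENSMUSG00000029838) on chromosome 6 from 36714929 to 36810220 and Matn4 (ENSMUSG00000016995) on chromosome 2 from 164389393 to 164405160.

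At the DNA level, the 250 bases before the RefSeq start (GRCm38.p6) were read for 11 promoters of 9 of the 10 genes, all but Ostn. The promoters of 6 genes are shown because the comparisons of age and site below turn on them, in lower case, 5′ to 3′. Capitals mark the E box form CAGATG in that of Angptl7 and letters of a Runx site on the other strand in that of Cilp. They also mark a TATA box in that of Postn, for which the downstream of its RefSeq starts is shown. Other E boxes (CANNTG) were left in lower case, among them 1 in that of Thbs4 and 3 in that of Cilp.
Tnmd, chrX:133850758-133851007, plus strand: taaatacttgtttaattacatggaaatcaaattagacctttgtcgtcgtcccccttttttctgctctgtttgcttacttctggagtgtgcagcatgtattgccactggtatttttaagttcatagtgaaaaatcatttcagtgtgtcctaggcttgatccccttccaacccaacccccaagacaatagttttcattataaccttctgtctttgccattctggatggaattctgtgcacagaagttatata
Thbs4, chr13:92794819-92795068, minus strand: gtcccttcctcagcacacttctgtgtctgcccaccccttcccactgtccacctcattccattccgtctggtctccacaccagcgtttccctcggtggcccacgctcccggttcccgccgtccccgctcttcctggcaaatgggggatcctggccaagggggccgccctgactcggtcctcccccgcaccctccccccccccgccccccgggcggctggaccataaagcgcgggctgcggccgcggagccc
Angptl7, chr4:148500463-148500712, minus strand: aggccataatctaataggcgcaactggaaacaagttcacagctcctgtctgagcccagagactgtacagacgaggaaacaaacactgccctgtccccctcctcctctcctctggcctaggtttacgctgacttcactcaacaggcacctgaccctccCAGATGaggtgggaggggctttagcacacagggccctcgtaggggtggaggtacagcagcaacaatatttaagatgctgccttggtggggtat
Cilp, chr9:65264930-65265179, plus strand: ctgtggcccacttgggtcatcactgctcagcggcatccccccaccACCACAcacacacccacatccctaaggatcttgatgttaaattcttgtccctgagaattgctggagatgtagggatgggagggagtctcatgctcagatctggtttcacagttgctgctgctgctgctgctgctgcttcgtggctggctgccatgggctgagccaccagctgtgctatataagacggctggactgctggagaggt
Tnn, chr1:160153576-160153825, minus strand: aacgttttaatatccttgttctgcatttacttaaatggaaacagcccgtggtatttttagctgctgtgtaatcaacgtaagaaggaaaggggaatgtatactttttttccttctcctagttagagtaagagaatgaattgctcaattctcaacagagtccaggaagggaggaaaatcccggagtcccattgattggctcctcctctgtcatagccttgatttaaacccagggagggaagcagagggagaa
Postn, chr3:54360857-54361106, plus strand: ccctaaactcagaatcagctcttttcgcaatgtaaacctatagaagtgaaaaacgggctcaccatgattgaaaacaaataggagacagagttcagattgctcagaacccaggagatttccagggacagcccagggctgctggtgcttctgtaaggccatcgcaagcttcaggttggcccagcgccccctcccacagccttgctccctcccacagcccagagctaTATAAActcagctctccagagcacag
These promoters differ widely in base composition, from 38.4% G and C for Tnmd and 42% for Tnn to 70.8% for Thbs4, with a median of 54.4% over the 11 promoters and 52.4% over all 32851 promoters of the table. Letters that several of these genes share were few. The E box CANNTG, which basic helix-loop-helix factors such as Scx and Twist1 can bind, was in 5 of 11 promoters and in 66.2% of all promoters, and its form CAGATG, counted within it, was in 1 of 11, that of Angptl7, and in 14.4% of all. The Runx letters TGTGGT were in 1 of 11, that of Cilp, and in 14% of all, and TATAAA was in 1 of 11, a Postn promoter, 26 bases before the start, and in 12.4% of all. GGGCGG was in 3 of 11 and in 32.7% of all, and the AP-1 letters TGANTCA were in 0 of 11 and in 6.75% of all. A Smad element, GTCTAGAC, was in 0 of 11 and in 0.167% of all. Both strands were searched. A match is only a match of letters, and no match says only that the letters are not in this window.

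Tnmd was counted at 173, 12 and 407 UMIs in CBMA at 02m, 12m and 18m and at 232, 1 and 2 UMIs in CBMD. As levels these were 458, 227 and 224 CPM in CBMA, against 594, 7.98 and 8.54 CPM in CBMD, so the CBMD libraries of 12m and 18m stood far below the other 4. It was detected in 21 of 48, 1 of 9 and 52 of 180 cells of CBMA and in 19 of 44, 1 of 15 and 2 of 19 cells of CBMD. The 12 UMIs of CBMA_12m all came from 1 cell, so that level rests on it. At 18m the level in CBMA was 0.488 of that at 02m (95% interval 0.408 to 0.587), and the level in CBMD was 0.0144 (0.00173 to 0.0525).

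Most Thbs4 UMIs were in the CBMA libraries of 02m and 18m. The gene had 263, 0 and 164 UMIs in CBMA, against 5, 0 and 0 UMIs in CBMD, or 697, 0 and 90.2 CPM and 12.8, 0 and 0 CPM. Its level at 02m was 54.4-fold higher in CBMA than in CBMD (23.0 to 169). Only 9, 0 and 12 cells of CBMA and 3, 0 and 0 cells of CBMD held it. A single cell of CBMA_18m gave 117 of its 164 UMIs (71.3%), and without the top cell of each library the ratio of 18m to 02m in CBMA was 0.053 in place of 0.129 (0.106 to 0.158).

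Cilp, like Thbs4, had its highest level in CBMA_02m and was in few cells. Its UMIs were 84, 0 and 65 in CBMA, against 25, 0 and 0 in CBMD, or 223, 0 and 35.7 CPM and 64.1, 0 and 0 CPM, held by 7, 0 and 5 cells and by 9, 0 and 0 cells. The level at 02m was 3.47-fold higher in CBMA than in CBMD (2.2 to 5.67), although more cells held it in CBMD, and 44 of the 65 UMIs of CBMA_18m came from 1 cell.

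Angptl7 had the opposite site order at 02m. It had 44, 0 and 54 UMIs in CBMA, against 222, 0 and 0 UMIs in CBMD, or 117, 0 and 29.7 CPM and 569, 0 and 0 CPM, held by 5, 0 and 7 cells and by 7, 0 and 0 cells. The level in CBMA at 02m was 0.205 of that in CBMD (0.145 to 0.284), where 1 cell gave 114 of the 222 UMIs. Without the top cell of each library this ratio was 0.151.

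Cilp2, the relative of Cilp, was spread over many more cells than Cilp, with at most 17 UMIs in any cell. Its UMIs were 64, 2 and 154 in CBMA, against 100, 3 and 0 in CBMD, or 170, 37.9 and 84.7 CPM and 256, 23.9 and 0 CPM. It was detected in 16 of 48, 1 of 9 and 44 of 180 cells of CBMA and in 22 of 44, 2 of 15 and 0 of 19 cells of CBMD. The ratio of 18m to 02m in CBMA, 0.499 (0.371 to 0.679), lies at the edge of the 2-fold limit used below.

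Tnn and Postn stood apart from the others in CBMD_12m. Tnn had 412, 0 and 746 UMIs in CBMA, against 113, 199 and 0 UMIs in CBMD, or 1092, 0 and 410 CPM and 290, 1588 and 0 CPM. The cells that held it numbered 23, 0 and 34 in CBMA, against 10, 4 and 0 in CBMD, and 1 of the 4 cells of CBMD_12m gave 154 of the 199 UMIs (77.4%). The ratio of 12m to 02m in CBMD was 5.48 (4.33 to 6.97), and 2.52 without the top cell of each library. Against 02m, Tnn in CBMA_12m was at least 19.2-fold lower, with 0 UMIs taken as 3.

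Postn was the gene detected in the largest share of cells in CBMD_12m. Its UMIs were 303, 1 and 1456 in CBMA, against 235, 190 and 22 in CBMD, or 803, 18.9 and 801 CPM and 602, 1516 and 94 CPM. It was held by 30 of 48, 1 of 9 and 38 of 180 cells of CBMA and by 15 of 44, 11 of 15 and 6 of 19 cells of CBMD. In CBMA the level at 18m matched that at 02m within counting error, with a ratio of 0.997 (0.881 to 1.13), but it came from 21.1% of the cells (15.4 to 27.8%) in place of 62.5% (47.4 to 76.0%), with a median of 11 UMIs in a cell that held it in place of 3. In CBMD the level was 2.52-fold higher at 12m than at 02m (2.07 to 3.06) and 0.156 of it at 18m (0.0960 to 0.242).

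Of the secreted factors, Ostn was seen at 02m and in CBMA_18m. Its UMIs were 58, 0 and 50 in CBMA, against 129, 0 and 0 in CBMD, or 154, 0 and 27.5 CPM and 331, 0 and 0 CPM, in 13, 0 and 21 cells and in 12, 0 and 0 cells. At 02m the level in CBMA was 0.465 of that in CBMD (0.335 to 0.639).

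Ptn was the member held by the largest share of collagen-high cells in both 02m libraries and in CBMA_18m. It had 533, 19 and 634 UMIs in CBMA, against 439, 47 and 6 UMIs in CBMD, or 1412, 360 and 349 CPM and 1125, 375 and 25.6 CPM. The cells that held it were 40 of 48, 3 of 9 and 90 of 180 in CBMA, against 38 of 44, 5 of 15 and 1 of 19 in CBMD. Levels at 02m were high at both sites, levels at 12m were close to each other (ratio of CBMA to CBMD 0.960, 0.532 to 1.67), and at 18m CBMA was 13.6-fold above CBMD (6.22 to 37.2).

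The level of Matn4 in CBMA_18m was close to that in CBMA_02m. It had 189, 6 and 963 UMIs in CBMA, against 371, 15 and 24 UMIs in CBMD, or 501, 114 and 530 CPM and 951, 120 and 103 CPM. It was in 19 of 48, 2 of 9 and 77 of 180 cells of CBMA and in 25 of 44, 4 of 15 and 6 of 19 cells of CBMD. The ratio of 18m to 02m was 1.06 in CBMA (0.904 to 1.24) and 0.108 in CBMD (0.0682 to 0.163).

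**Figure D1:**
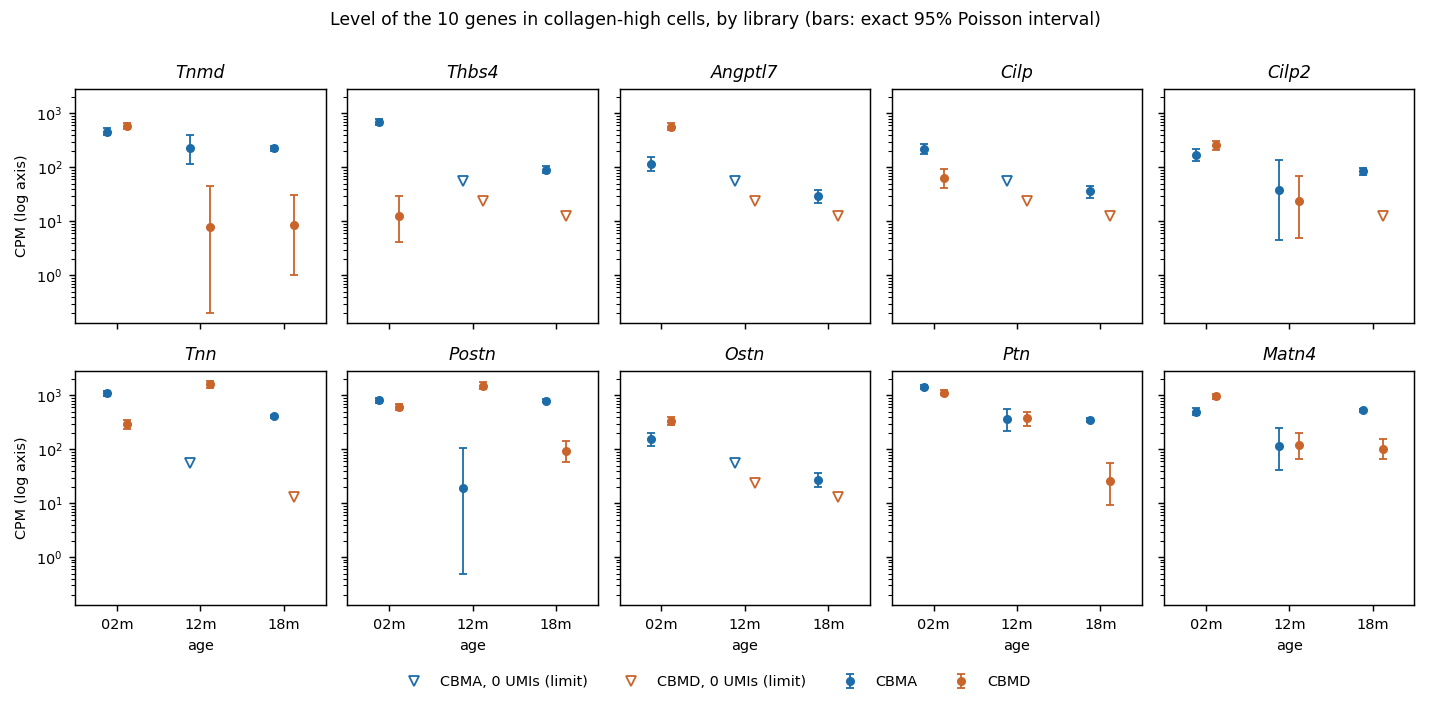
Level of each gene in collagen-high cells, in CPM on a log axis, by age (horizontal axis) and site (color), with exact 95% Poisson intervals; open triangles mark libraries with 0 UMIs at their limit of 3 UMIs. The points of CBMD_18m and the limits of CBMD_18m lie at or below 103 CPM for all 10 genes, Tnn and Postn reach 1588 and 1516 CPM in CBMD_12m, and the wide bars of CBMA_12m come from its 9 cells.

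In each comparison a ratio was read for genes with 20 or more UMIs in the pair of libraries summed (measured genes), and those at least 2-fold apart were counted as lower or higher. Because these contrasts chose the genes, the counts describe the choice and nothing is read from them, and all genes measured in the same comparison are given as background. From 02m to 12m in CBMA, 10 of 10 members were lower (14.9% of 3375 genes measured were) and 0 higher (19%), with ratios or upper bounds from 0.0236 for Postn to 0.496 for Tnmd. The median log2 ratio of the members was -2.06, beside 0.12 over all measured genes. In CBMD, 7 of 9 measured members were lower (17.2% of 4265 genes) and 2, Tnn and Postn, were higher (15.6%). Of the 10 genes, 7 were lower at 12m at both sites, the pattern they were chosen for, and Thbs4 was too low in CBMD at both ages to give a ratio. The 12m levels rest on 9 and 15 cells only, and in CBMA_12m 7 of the 9 cells held a UMI of Ptprc or Csf3r, genes of leukocytes and neutrophils. Leaving out all such cells left 2 cells there, too few to give most members a ratio, and none of the members still measured was 2-fold lower. The part of the left-out cells in the result was not tested.

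From 02m to 18m the sites parted. In CBMD, 9 of 9 measured members were lower at 18m (20.2% of 4836 genes), with ratios or upper bounds from 0.0144 for Tnmd to 0.200 for Cilp, and a median log2 ratio of -4.50 beside -0.11 over all genes. In CBMA, 8 of 10 were lower (5.43% of 9732 genes) and Postn and Matn4 lay between, with a median of -1.69 beside 0.21. None was higher in either site (17.4% of all genes were in CBMA, against 13.8% in CBMD). For 9 of 10 genes more cells held it in CBMA_18m than in CBMA_02m, the exception being Cilp with 5 and 7 cells, but these were 180 and 48 cells in all, and the share of cells that held a gene was lower in CBMA_18m for 9 of 10, the exception being Matn4.

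Cells with CAR markers moved with this, and their part in it was not tested. Of the 180 collagen-high cells of CBMA_18m, the 74 that carried CAR markers held 46.5% of all UMIs and 9.65% of the members' UMIs. Tnn had 746 UMIs in the 106 other cells and 0 in these 74, while Postn had 1401 and 55, Tnmd 372 and 35, and Cilp2 148 and 6. Ptn (467 and 167) and Matn4 (786 and 177) were the members with the most UMIs in CAR-marker cells. With cells of at least 20 Cxcl12 UMIs left out of every library, 5 of 10 members were 2-fold lower in CBMA_18m than in CBMA_02m: Thbs4 (ratio 0.190), Cilp (0.236), Ostn (0.237), Ptn (0.319) and Angptl7 (0.375), while Tnn (0.553), Tnmd (0.697) and Cilp2 (0.730) came within 2-fold and Postn (1.41) and Matn4 (1.5) above 1. In CBMD_18m, 16 of 19 collagen-high cells carried CAR markers and the list stood at 28843 CPM, beside 305 CPM in CBMD_02m and 8619 CPM in CBMA_18m.

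**Figure D2:**
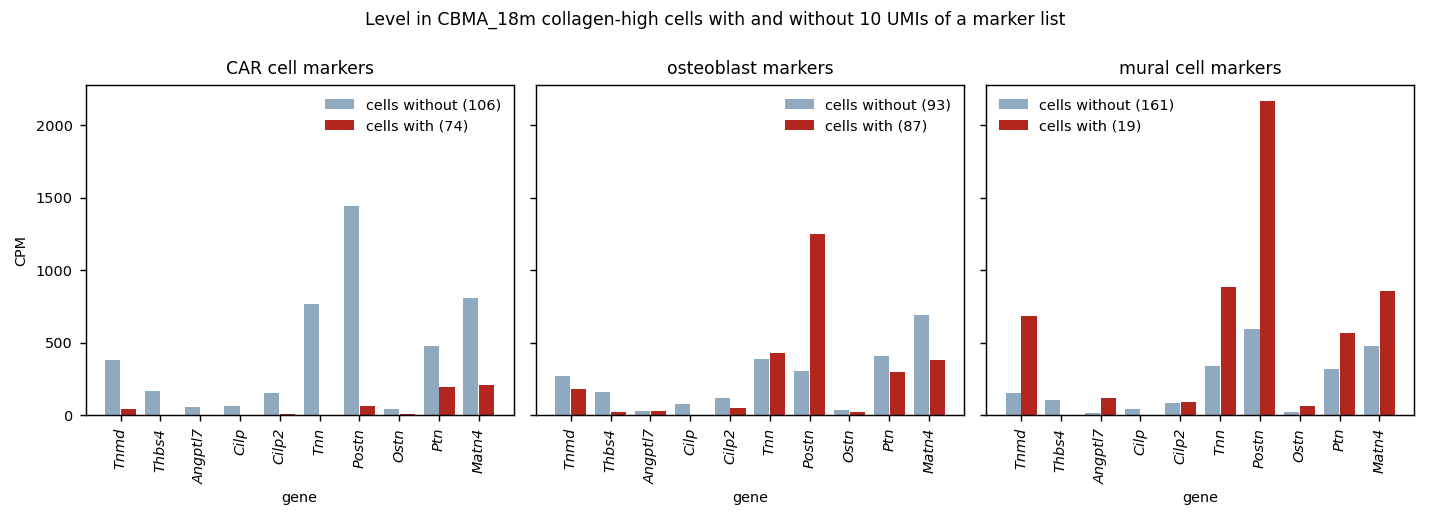
Level of each gene (CPM, linear axis) in the 180 collagen-high cells of CBMA_18m, split into cells with and without at least 10 UMIs of the CAR, osteoblast or mural cell markers. Every gene is lower in the 74 cells with CAR markers, 0 UMIs of Tnn were in them, and Postn is higher in cells with osteoblast markers (1249 CPM) than in those without (308 CPM).

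In CBMA_18m the 87 cells that carried osteoblast markers held 52.3% of all UMIs and 54.1% of the members' UMIs. Postn had 1189 of its 1456 UMIs in them, while Cilp had 0 of 65 and Thbs4 22 of 164. Tnn, with 410 of 746, and Tnmd, with 173 of 407, lay near the share of all UMIs. The 19 cells of CBMA_18m with at least 10 UMIs of 7 mural cell markers held 12.9% of all UMIs and 27.3% of the members' UMIs. Cilp (0 of 65) and Thbs4 (1 of 164) lay below this share of all UMIs and the other members above it, among them Postn (509 of 1456). The 43 cells with 7 fibroblast markers at the same minimum held 25.8% and 11.7%. In CBMD_12m 10 of 15 cells carried osteoblast markers, with 75.5% of all UMIs. Postn had 156 of its 190 UMIs in 7 of these cells. The 154 of 199 Tnn UMIs found in them came from 1 cell, the other 3 cells with Tnn did not carry the markers, and the level of Tnn was 1628 CPM with and 1463 CPM without them. In CBMD_02m 10 of the 12 cells with Ostn carried osteoblast markers, and in CBMA_02m 6 of 13 did. At least 10 UMIs of 7 meningeal and arachnoid fibroblast markers were held by 4, 2 and 58 cells of CBMA and 6, 3 and 2 of CBMD. Of the list's 2043 UMIs in CBMA_18m, 1124 were Fxyd5 and 652 Foxd1. Its 58 cells held 37.4% of all UMIs. Ptn (368 of 634), Matn4 (391 of 963) and Cilp2 (61 of 154) lay above this share and the other members below it. Their part in the result was not tested.

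At 02m, 5 of 10 members lay within 2-fold between the sites. Thbs4, Tnn (3.77-fold, 3.05 to 4.69) and Cilp were higher in CBMA (3.76% of 5445 genes were), Angptl7 and Ostn were lower (7.02%), and the others were Tnmd, Cilp2, Postn, Ptn and Matn4. The median log2 ratio was -0.02 beside -0.09 over all genes. At 12m, 4 members were measured: Tnn and Postn were lower in CBMA (18.8% of 1535 genes), Tnn by at least 27.9-fold, and Ptn and Matn4 lay between, with none higher (12.3%). At 18m, 10 of 10 were higher in CBMA (15.7% of 9425 genes) and none was lower (7.01%). With 0 UMIs taken as 3, the ratios ran from 32.0-fold for Tnn and 26.2-fold for Tnmd (7.21 to 217) down to 2.15-fold for Ostn. The exact lower limits were 26.0-fold for Tnn, 1.82-fold for Angptl7 and 1.68-fold for Ostn. The intervals of Angptl7 and Ostn thus reach below 2-fold. The count was 5 of 7 measured members without cells of at least 20 Cxcl12 UMIs and 6 of 9 without the top cell of each library. In CBMA from 12m to 18m, 4 of 7 members that gave a ratio were higher (7.93% of 7569 genes), Postn 42.3-fold (7.57 to 1670.2), Tnn at least 7.22-fold, Matn4 4.66-fold (2.13 to 12.7) and Cilp2 2.23-fold (0.608 to 18.6), and none was lower (22.8%). For Angptl7, Cilp and Ostn the 9 cells of CBMA_12m were too few to give a direction. In CBMD over the same ages 3 of 4 measured members, Tnn, Postn and Ptn, were lower at 18m (14.2% of 2983 genes) and none was higher (9.35%).

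**Figure D3:**
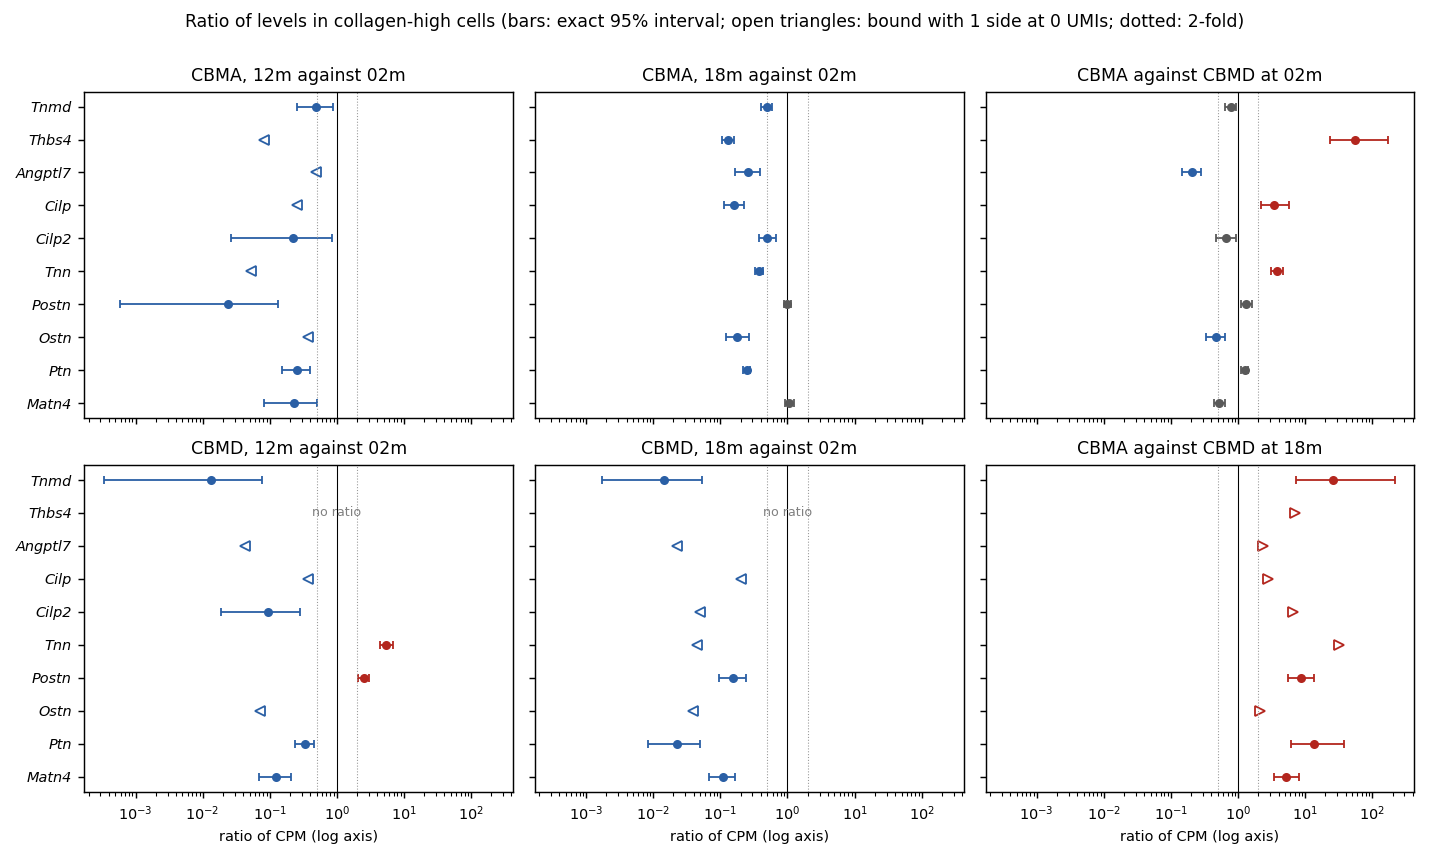
Ratio of the CPM of each gene for 6 comparisons on log axes, with exact 95% intervals, open triangles for bounds where 1 library had 0 UMIs, and dotted lines at 2-fold. All points lie left of 1 in CBMA_12m, Tnn (5.48) and Postn (2.52) alone lie right of 1 in CBMD_12m, and all 10 lie right of 2 for CBMA against CBMD at 18m.

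Many collagen-high cells of the young libraries held several of these genes. At least 3 of the 10 were detected in 40 of 48 cells of CBMA_02m (83.3%, 69.8 to 92.5%), in 31 of 44 cells of CBMD_02m (70.5%, 54.8 to 83.2%) and in 77 of 180 cells of CBMA_18m (42.8%, 35.4 to 50.4%). In the remaining libraries the cells were 1 of 9, 5 of 15 and 1 of 19 for CBMA_12m, CBMD_12m and CBMD_18m. As a share of all cells, however, CBMA_18m stood highest, with 1.06% (0.841 to 1.33%) beside 0.466% (0.333 to 0.634%) in CBMA_02m and 0.0151% (0.000382 to 0.0841%) in CBMD_18m. Since depth differs between libraries, each cell was also thinned to 1000 UMIs, which left out 0 cells. The shares of collagen-high cells were then 41.7%, 0% and 12.8% in CBMA, against 43.2%, 13.3% and 0% in CBMD, with an upper limit of 33.6% in CBMA_12m and 17.6% in CBMD_18m by the exact binomial interval. Thinned in the same way, Ptn was in 56.2%, 0% and 21.7% of CBMA cells, against 52.3%, 26.7% and 0% of CBMD cells, and Postn in 31.2%, 11.1% and 13.9%, against 22.7%, 60% and 5.26%. At equal depth, too, the 02m libraries had larger shares of cells with at least 3 genes than CBMA_18m.

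**Figure D4:**
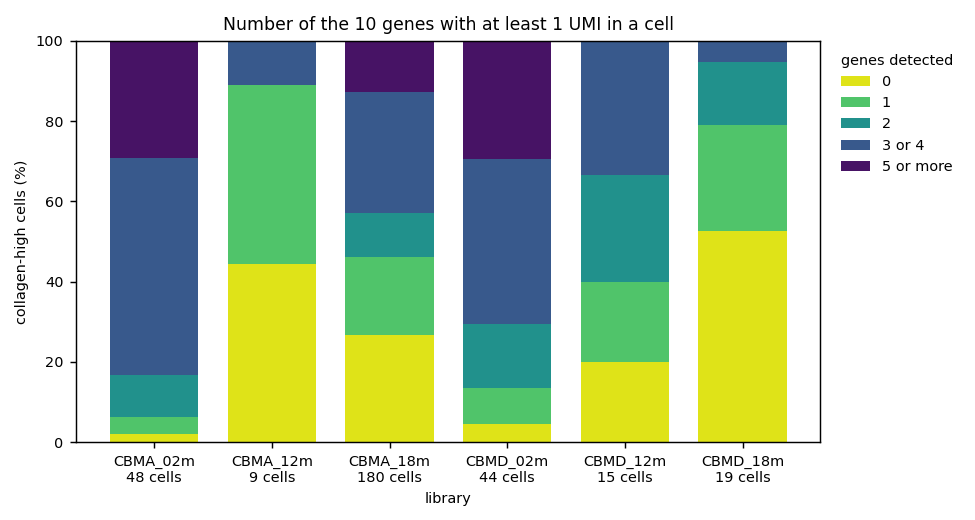
Share of collagen-high cells (percent, bars from 0 to 100) that held 0, 1, 2, 3 or 4, or 5 or more of the 10 genes, for each library with its number of cells. CBMA_02m, CBMA_18m and CBMD_02m have cells with 5 or more genes (14 of 48, 23 of 180 and 13 of 44), and the other libraries have 0.

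Tnn was found mostly in cells with Postn, and Tnmd, in CBMA_18m and CBMD_02m, mostly in cells with Matn4. Co-detection was part of how the genes were chosen, so these overlaps describe the choice. In CBMA_18m, 26 of 34 cells with Tnn held Postn (76.5%, 58.8 to 89.3%), beside 12 of 146 cells without Tnn. In CBMD_02m these were 9 of 10 and 6 of 34, in CBMA_02m 19 of 23 and 11 of 25, and in CBMD_12m 4 of 4 and 7 of 11. Every Tnn cell of CBMA_02m, 23 of 23, also held Ptn, as did 17 of the 25 cells without Tnn.

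Cells with Tnmd held Matn4 in 42 of 52 cases in CBMA_18m (80.8%, 67.5 to 90.4%), beside 35 of 128 cells without Tnmd. They held Postn in only 5 of 52 cases (9.62%, 3.20 to 21.0%), beside 33 of 128. The same pairs gave 16 of 19 and 3 of 19 in CBMD_02m, where 25 and 15 of all 44 cells held Matn4 and Postn. In CBMA_02m each was in 10 of 21 Tnmd cells, beside 19 of all 48 cells for Matn4 and 30 of 48 for Postn. Cilp2 cells held Matn4 in 11 of 16, 21 of 22 and 35 of 44 cases in CBMA_02m, CBMD_02m and CBMA_18m. Cells with Ostn held Tnn in 9 of 13 cases in CBMA_02m and in 7 of 12 in CBMD_02m, but in 4 of 21 in CBMA_18m, where 15 of 21 held Tnmd and 17 of 21 held Matn4.

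The rarest genes overlapped in CBMA_02m, where 5 of 7 cells with Cilp held Thbs4 and 6 of 7 held Postn. In CBMD_02m 0 of 9 cells with Cilp and 0 of 7 cells with Angptl7 held Postn, which allows up to 33.6% and 41.0%, and all 7 of the latter held Cilp2. In CBMA_18m 1 of 5 cells with Cilp held Thbs4. These cells are of 1 pool each and share its depth, so they are not replicates.

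**Figure D5:**
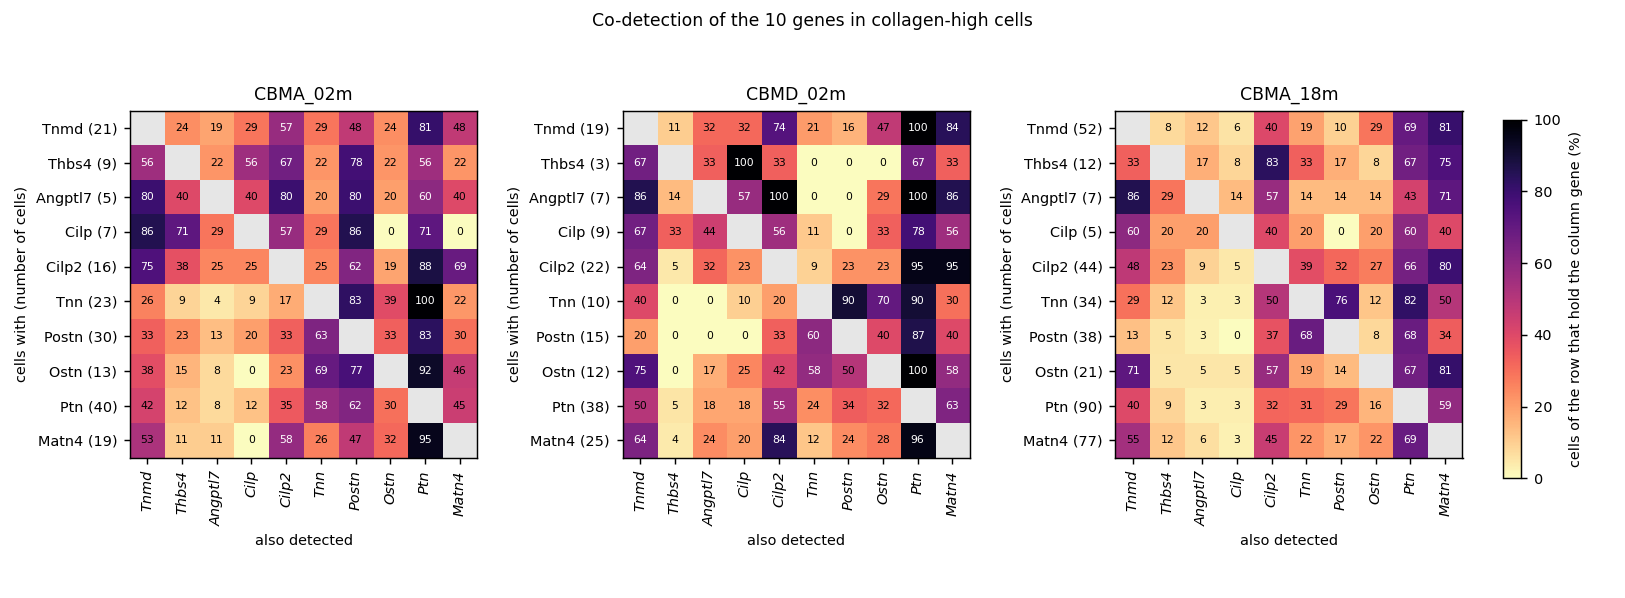
Share of cells (percent, color and printed value) with the row gene, whose number of cells is in parentheses, that also held the column gene, in collagen-high cells of CBMA_02m, CBMD_02m and CBMA_18m. Tnn and Postn cells overlap in all 3 libraries, and Tnmd cells hold Matn4 in 81% of cases in CBMA_18m but Postn in 10%.

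Over the 180 collagen-high cells of CBMA_18m, the genes most like each member were named by Pearson's r of log-scaled UMIs per 10000, for the 7 members with at least 20 positive cells and among 8518 genes. Such correlations across cells share 1 library and its depth, and are a description. Tnmd was most like Sfrp2 (r = 0.71, and 0.37 in CBMA_02m and 0.80 in CBMD_02m), a secreted Wnt modulator, then the noncoding Gm26771 (0.69) and Thbs2 (0.59). Tnn was most like Col1a2 (0.77), a gene of the gate itself, Lrrc15 (0.73, and 0.66 in CBMA_02m and 0.82 in CBMD_02m) and Postn (0.72), and Postn was most like Tnn, Ccn4 (0.65) and Col3a1 (0.64). Matn4 was most like Fmod (0.59, and 0.54 and 0.73 in the 02m libraries), a proteoglycan that orders collagen fibrils, Cpxm2 (0.56) and Col8a2 (0.56). Cilp2 was most like Chad (0.48, and 0.69 and 0.56), Col8a2 (0.45) and Megf6 (0.44, and -0.06 and 0.23). Ostn (Gm26771, 0.53, and 0.09 and 0.36) and Ptn (Nbl1, 0.42, and -0.12 and 0.28) had weak first values that did not recur in CBMA_02m. Next for Ostn were Sfrp2 (0.46, and 0.31 and 0.47) and Rian (0.43, and -0.14 and 0.03). For Ptn they were Pdgfrl (0.41, and 0.23 and 0.20) and the gate gene Col1a1 (0.41, and 0.31 and 0.44).

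Other genes of tendon and ligament were counted in the same way. Of 18 such genes, none of them a member, 15 were measured for 12m against 02m in CBMA. There 4 were higher (19% of all measured genes) and 3 lower (14.9%). In CBMD 16 were measured, with 2 higher (15.6%) and 9 lower (17.2%). Egr1, also a dissociation gene, was among the higher at both sites, at 411 and 1288 CPM in CBMA at 02m and 12m and 528 and 1516 CPM in CBMD. The highest ratio was that of Tnc, tenascin C, at both sites, 6.13 in CBMA (4.27 to 8.78) and 33.1 in CBMD (25.1 to 44.3), and the lowest were Prg4, lubricin, in CBMA (at most 0.125) and Col14a1, a collagen of fibril surfaces, in CBMD (0.0741, 0.0295 to 0.155). For 18m against 02m, 2 of 17 were higher (17.4% of all measured genes) and 3 lower (5.43%) in CBMA. In CBMD 3 of 16 were higher (13.8%) and 11 lower (20.2%). The medians were -0.20 and -2.05 on the log2 scale. At 18m, 11 of 17 were higher in CBMA than in CBMD (15.7% of all measured genes). Only 1, Tnc, was lower (7.01%), at 0.202 (0.182 to 0.224). Col14a1 was 80.6-fold higher (14.4 to 3188) and Chad, a leucine-rich matrix protein, at least 27.3-fold. Scx had 16, 3 and 37 UMIs in CBMA, against 5, 0 and 0 in CBMD, or 42.4, 56.8 and 20.3 CPM and 12.8, 0 and 0 CPM. In CBMA_02m all 9 cells with Scx were among the 21 with Tnmd, and in CBMA_18m 11 of 15 were among the 52.

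Relatives of the members in the same protein families moved in both directions. Of 21, 12 were measured for 18m against 02m. In CBMA 3 were higher (17.4% of all measured genes) and 2 lower (5.43%), and in CBMD 2 were higher (13.8%) and 8 lower (20.2%). Tenascins parted: Tnc stood at 143, 4747 and 2520 CPM in CBMD at 02m, 12m and 18m, where Tnn stood at 290, 1588 and 0 CPM. Among thrombospondins, Thbs2 was 0.0899 of its 02m level in CBMD_18m (0.0613 to 0.128), with 612 and 33 UMIs. Mdk, midkine, the relative of Ptn, had 186, 12 and 97 UMIs in CBMD, or 477, 95.7 and 414 CPM, so that at 18m its level was close to that of 02m while Ptn was at 25.6 CPM in place of 1125 CPM. Angptl1 was lower at 18m in both sites (0.365 in CBMA, against 0.273 in CBMD), and Angptl4 was higher in both (5.43 and 3.99). Tnr, Matn1 and the natriuretic peptides Nppa and Nppb had 0 UMIs in every library.

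Receptors and partners of the members were mostly within 2-fold between the sites at 18m. Of 25, 22 were measured for CBMA against CBMD at 18m, with a median log2 ratio of 0.20, and 0 were lower (7.01% of all measured genes). The 4 that were higher (15.7%) were Tgfb2 (at least 4.89-fold), Npr3, the clearance receptor that binds osteocrin (3.99-fold, 1.32 to 19.7), Tgfb3 and Fn1. In CBMD at 12m against 02m, 7 of 18 were higher (15.6% of all measured genes) and 0 lower (17.2%). Among the higher were Tgfb1 (4.75-fold, 2.65 to 8.66), a growth factor, and the integrin chains Itgav (2.95-fold, 1.46 to 5.94) and Itgb5 (3.58-fold, 2.78 to 4.6). All 9 dissociation genes were higher in this comparison too, and any tie of these genes to the members was not tested. Ptprz1, a receptor of pleiotrophin, had 6, 13 and 62 UMIs in CBMA, against 13, 9 and 10 in CBMD. As levels these were 15.9, 246 and 34.1 CPM and 33.3, 71.8 and 42.7 CPM. Alk, another receptor, had 0 everywhere.

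Of 14 fibrillar collagens and their assembly genes, 3 are the genes of the gate. At 12m against 02m, 10 were lower (14.9% of all measured genes) and 1 higher (19%) in CBMA, and 2 lower (17.2%) and 1 higher (15.6%) in CBMD. At 18m against 02m, 5 were lower (5.43%) and 1 higher (17.4%) in CBMA, and 12 lower (20.2%) and 1 higher (13.8%) in CBMD. From 12m to 18m, 6 were higher (7.93%) and 0 lower (22.8%) in CBMA, and 8 were lower (14.2%) and 0 higher (9.35%) in CBMD. The median number of gate UMIs in a collagen-high cell was 190, 53 and 54 in CBMA, against 144.5, 70 and 34 in CBMD. Per UMI of the 3 gate collagens in place of all UMIs, 3 of 10 members were lower at 18m than at 02m in CBMA, against 5 of 8 in CBMD, where Postn (1.60) and Matn4 (1.10) lay above 1.

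The 20-UMI limit left out cells just below it that held these genes. With a limit of 10 UMIs, which added 4, 7 and 58 cells in CBMA, against 2, 13 and 13 in CBMD, Postn had 9 UMIs in CBMA_12m in place of 1 and Cilp had 5 in place of 0. In CBMD_12m a single cell with 14 collagen UMIs, of 3718 in all, held 41 UMIs of Thbs4, 6 of Angptl7, 5 of Cilp, 34 of Fmod and 14 of Comp. The 0 Thbs4 UMIs of collagen-high cells in CBMD_12m therefore depend on the limit.

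Transcripts outside the cells that made them were looked for in neutrophils. In cells with at least 20 UMIs of S100a8 and S100a9, neutrophil genes, and 0 of the 3 collagens, each member was detected in 0% to 0.755% of 1456 to 5083 cells in a library, at median depths of 2701 to 3190 UMIs, beside 4498 to 11767 UMIs in collagen-high cells. The highest value was Ptn in CBMA_12m, 11 of 1456 cells, and in the other libraries the highest was 0.296%, Matn4 in CBMA_18m.

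Ptn in CBMA_12m lay mainly outside the collagen-high cells, which was seen in the data and then looked at. Cells outside the limit held 280 Ptn UMIs there, beside 19 inside it, and 0 to 70 in the other 5 libraries. Of the 280, 234 were in 21 of the 99 cells with at least 3 UMIs of the endothelial markers Pecam1, Cdh5, Emcn and Kdr, at 520 CPM, with at most 50 in a cell. In the other libraries 0 to 7 of 54 to 183 such cells held Ptn. Of the 21 cells, 20 held Vwf, von Willebrand factor of endothelium, and 13 held Slc2a1, a glucose transporter, beside 27 and 12 of the 78 endothelial-marker cells without Ptn. Cldn5, a junction protein of endothelium, was in 7 of the 21 and 13 of the 78. Of the markers that defined these cells, Pecam1 was in 20 and 71, Cdh5 in 19 and 53 and Emcn in 19 and 52. Vwf and Slc2a1 were picked after their values were seen.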

How the data were processed

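Single-cell RNA-seq was made from 6 libraries with a 10x Genomics 3' kit. Per the file headers and the study's methods, the authors demultiplexed with bcl2fastq and aligned to GRCm38 and counted UMIs with Cell Ranger 5.0.1, and deposited raw UMI counts per gene and barcode, with no normalization. Barcodes were kept with at least 500 UMIs, 500 to 5000 genes and under 25% mitochondrial UMIs, which left 37576 of 43420, with 16031737 to 66264495 UMIs per library. Among the barcodes left out, 20 with at least 20 collagen UMIs had over 5000 genes. Of these, 4 were in CBMD_12m, beside 15 kept, and 1 was in CBMA_12m, beside 9 kept. Cells with at least 20 UMIs of Col1a1, Col1a2 and Col3a1 were summed per library and scaled to 1000000 UMIs. Intervals are exact (Poisson, conditional binomial for ratios, Clopper-Pearson for shares, 95%) and, since UMIs cover counting error only, describe these pools and not the variation of mice. With 1 library per age and site no test was made. A sum of 0 was set to 3 UMIs for a bound. Values given as at least or at most on this basis leave out the counting error of the other library. No doublet caller was run, and cells with Ptprc or Csf3r UMIs were left out as an alternative. Thinning drew 1000 UMIs per cell with a fixed seed.

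The members and the gene lists were chosen with earlier results of these data known. All members were named, then the genes of each list with the highest and lowest ratios, and for each member with 20 or more positive cells in CBMA_18m the 3 genes with the highest r there. In all, 15 alternatives were tried for gate, filters, depth, scaling, minimum, fold and single cells. Counting and ratios were tested on simulated data. Python 3.11.15, numpy 2.4.6, scipy 1.17.1, pandas 2.3.3 and matplotlib 3.10.9 were used. Gene positions came from a GENCODE annotation of GRCm38 and promoters from RefSeq on GRCm38.p6.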

Additional observations from a re-analysis of the deposited data

Results flagged for a closer look

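Tnn and Postn took opposite directions at the 2 sites. From 02m to 12m the level of Tnn in CBMA was at most 0.0521 of that at 02m, with 0 UMIs set to 3, and in CBMD it was 5.48 times that at 02m. For Postn the same ratios were 0.0236 in CBMA and 2.52 in CBMD. From 12m to 18m the directions were exchanged: Tnn was at least 7.22-fold higher in CBMA and at most 0.00807 of its 12m level in CBMD, and Postn was at 42.3 and 0.062. Each site has 1 library per age, so the difference between the sites was not tested, and both pairs of ratios use the same 12m libraries, with 9 and 15 collagen-high cells. In CBMD_12m, 154 of the 199 Tnn UMIs came from 1 cell, whose share in the result is given by the ratio without the top cell, 2.52 in place of 5.48.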

How the results depend on the processing

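No paired analysis was possible because each age and site is 1 library. Over 7 counts of members and 15 alternatives, 87 of 105 counts stayed within 1.5 times and 18 moved, and of 734 ratios of single members 530 stayed within their counting interval, 199 moved beyond it and 5 that were at least 2-fold apart turned direction. Members lower in CBMA at 18m against 02m, 8 of 10, became 5 with a gate of 50 UMIs, without Ptprc or Csf3r cells, without cells of 20 Cxcl12 UMIs or thinned, and 3 per collagen UMI. Members higher in CBMA than in CBMD at 18m, 10 of 10, became 5 with a gate of 50 UMIs or without Cxcl12 cells, 4 thinned, 3 per collagen UMI and 6 without the top cell. Members lower in CBMA at 12m against 02m, 10 of 10, became 0 of 3 measured without Ptprc or Csf3r cells, 6 of 6 thinned and 3 per collagen UMI. Members higher in CBMA at 18m against 12m, 4 of 7, became 0 of 1 without Ptprc or Csf3r cells and 2 of 4 thinned. In CBMD, members lower at 12m, 7 of 9, became 3 of 5 thinned, and those lower at 18m, 9 of 9, became 4 of 4 thinned and 5 of 8 per collagen UMI. Fewer members were measured in some alternatives, which by itself lowers a count. Without Cxcl12 cells, however, all 10 members still gave a ratio in CBMA at 18m against 02m, and 5 were lower. Causes of these changes were not tested. All 5 reversals were per collagen UMI: Tnmd in CBMA at 12m (1.93) and 18m (1.19) against 02m, Cilp2 in CBMA at 18m (1.21), and Postn (1.60) and Matn4 (1.10) in CBMD at 18m. Scaling by median of ratios moved the median log2 ratio of all genes by over 0.1 in CBMA at 12m against 02m (0.18), 18m against 02m (0.19) and 18m against 12m (-0.34) and between sites at 18m (0.10), and turned no member. Collagen-high cells were 9 to 180 per library, so at 12m and in CBMD_18m a member in a few percent of cells could be missed. Whether the pools of both sites at 1 age came from the same mice is not given in the sources used here, and age cannot be told apart from the difference in Xist at 12m.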
